A study of Mus musculus with 6 samples.

Results

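The interleukin-1 (IL-1) and interleukin-18 (IL-18) receptor family was followed in mouse CD4 T cells cultured as Th17 cells, which make the cytokine interleukin-17. The family was defined by name as 10 genes: the receptor chains Il1r1, Il1r2, Il1rl1, Il1rl2, Il18r1, Il18rap and Il1rap, the receptor antagonist Il1rn, the inhibitory receptor Sigirr and the adaptor Myd88. All 10 were found among the 33300 features of the deposited table, which gives FPKM values (fragments per kilobase of feature length, scaled to the reads assigned in each library). The control group held 3 wild-type (WT) libraries, named Control mouse 1 to 3. The other group held 3 libraries of SLE1.2.3 mice, a lupus-prone line whose name stands for the susceptibility intervals Sle1, Sle2 and Sle3. All mice were female and age-matched, with no age or background strain given in the labels. In both groups naive CD4 T cells were cultured for 5 days on plates coated with antibodies to CD3 and CD28. The medium of both groups held TGF-β1 (1 ng/mL), IL-6 (50 ng/mL), IL-23 (10 ng/mL), IL-1β (10 ng/mL) and antibodies to IL-4 and interferon-γ (10 µg/mL each), so that every culture had received a ligand of Il1r1.

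As background, the receptors of this family carry immunoglobulin-like domains outside the cell and, in the signalling members, a TIR domain inside it. IL-1 binds Il1r1, which then recruits the accessory chain Il1rap, and the paired TIR domains bind Myd88, which passes the signal through IRAK kinases and Traf6 to NF-κB. Il1r2 binds IL-1 but lacks the TIR domain and acts as a decoy, and Il1rn occupies Il1r1 without signalling. IL-18 binds Il18r1, and Il18rap is the second chain of that receptor. Il1rl1 is the IL-33 receptor and Il1rl2 the IL-36 receptor, and both use Il1rap. IL-1 signalling is known to promote Th17 differentiation, and IL-18 to promote interferon-γ production by Th1 cells and other lymphocytes.

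Depth, recovered from the FPKM steps and counted in units of 1000000 assigned reads, was 29.7 to 56.8 in the control libraries and 61.7 to 83.5 in the SLE1.2.3 libraries. Every library carried RNA of T cells and of Il17a, though these levels do not show which cells made Il17a. Il17a, which encodes the defining Th17 cytokine, was at 394 to 801 FPKM in the controls and 1676 to 2274 FPKM in the SLE1.2.3 libraries, and Cd3e, a chain of the T cell receptor complex, was at 47.5 to 60.8 FPKM in all 6. SLE1.2.3 mice 2 and 3 stood apart from mouse 1. Against 246 to 264 FPKM in the controls, the Cd4 levels of SLE1.2.3 mice 1, 2 and 3 were 257, 144 and 71.6 FPKM. Cd8a, the CD8 coreceptor, was at 1.34, 21.4 and 56.4 FPKM in those 3 and at most 0.508 FPKM in the controls. Trdc, the constant region of the δ chain of the γδ receptor, was at 4.96, 18.9 and 45.2 FPKM in them. It was at most 0.661 FPKM in the controls. Results are therefore also given without SLE1.2.3 mice 2 and 3, where the comparison has 1 SLE1.2.3 library and assumes that it varies like the controls.

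RNA of 5 of the 10 genes rose in SLE1.2.3 cells: Il1r1, Il1r2, Il18r1, Il18rap and Myd88. The mean level of Il1r1 was 12.4 times, of Il18rap 7.02 times, of Il18r1 3.18 times, of Il1r2 3.01 times and of Myd88 1.56 times that of the controls. Il1rl2 and Sigirr did not pass, and Il1rl1, Il1rap and Il1rn lay below the filter, a mean of 1 FPKM over the 6 libraries. All 7 members above the filter also had a mean above 1 FPKM in the controls alone. In bulk RNA a change in the share of cells that hold a transcript and a change in its level per cell cannot be told apart. Genes were compared with limma on log2(FPKM + 1), with Benjamini-Hochberg adjustment over all 11378 genes above the filter. The threshold of 0.05 was met by 15.2% of these genes, where 9.65% rose and 5.58% fell. The median log2 difference was 1.55 over the 7 tested members and 0.01 over all tested genes. Over the 10 members, the 3 SLE1.2.3 values lay above all control values for 6 and below them for 1. Of all features above 0, 25.9% had groups that did not overlap, 15.0% with the SLE1.2.3 values above. Among tested genes the share was 41.5%, with 23.9% above and 17.7% below. Without the filter 2.66% of 30034 features passed, and 2 members did, Il1r2 and Il18r1.

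**Figure D1:**
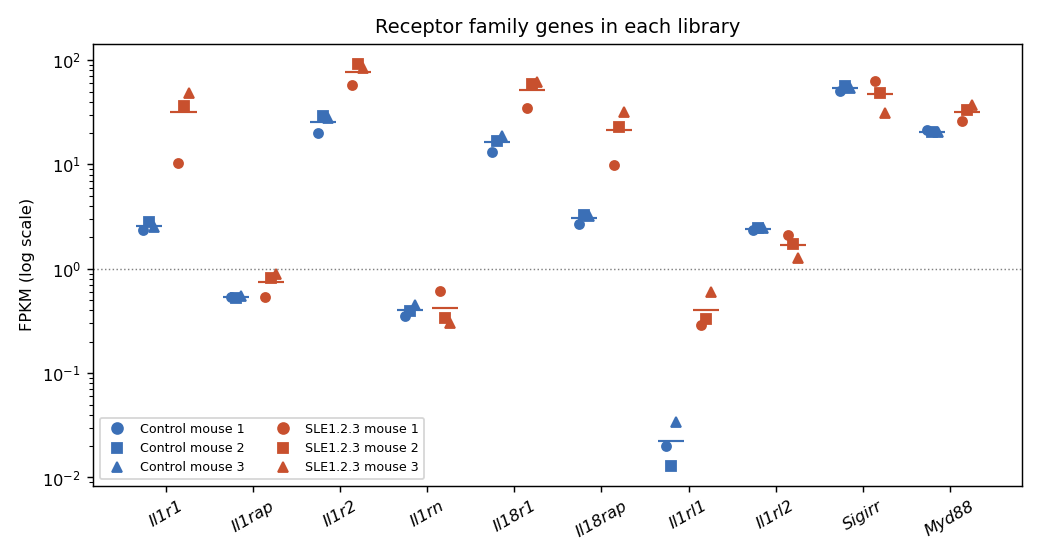
FPKM (log axis) of each receptor family gene in each library, with blue for control and orange for SLE1.2.3 mice, 1 symbol per mouse, short lines at the group means and a dotted line at 1 FPKM, the value used as a filter on the mean. Il1r1, Il1r2, Il18r1, Il18rap, Il1rl1 and Myd88 have all 3 SLE1.2.3 points above the 3 control points, Il1rl2 has them below, and the other 3 genes overlap.

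The order of the mean levels differed between the groups. FPKM is per length, so levels may be set side by side between genes, although the length is that of all annotated exons of a gene and not of the isoforms in these cells. In control cells Sigirr had the highest mean, 53.8 FPKM, followed by Il1r2 at 25.8, Myd88 at 20.6 and Il18r1 at 16.2 FPKM. Il18rap, Il1r1 and Il1rl2 followed at 3.07, 2.57 and 2.43 FPKM, and Il1rap, Il1rn and Il1rl1 were at 0.537, 0.399 and 0.0223 FPKM. The control ranges of Il1r2 and Myd88 overlapped, as did those of Il18rap with Il1r1 and of Il1r1 with Il1rl2. In SLE1.2.3 cells the order was Il1r2 at 77.7, Il18r1 at 51.7, Sigirr at 47.6, Myd88 at 32.2, Il1r1 at 31.8 and Il18rap at 21.5 FPKM. Each neighbouring pair among those 6 overlapped in range. Il1rl2 at 1.70 and Il1rap at 0.744 FPKM stood below them without overlapping each other, and Il1rn was at 0.417 and Il1rl1 at 0.405 FPKM. The ranges of Il1rap, Il1rn and Il1rl1 overlapped, so the order of those 3 is not resolved. In SLE1.2.3 mouse 1 Sigirr, at 63.3 FPKM, was still above Il1r2 at 58.4 FPKM, as in the controls. Il1r2 and Il18r1 stood above Sigirr in SLE1.2.3 mice 2 and 3.

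Of the genes of the IL-1 receptor itself, the signalling chain Il1r1 (chromosome 1, 40225080 to 40317257, plus strand, mm10) was at 2.35, 2.83 and 2.54 FPKM in control mice 1, 2 and 3, from 480 to 1023 reads. In SLE1.2.3 mice 1, 2 and 3 it reached 10.3, 36.4 and 48.7 FPKM, from 5453 to 23258 reads. The groups did not overlap, the controls lay close together, and SLE1.2.3 mouse 1 was far below mice 2 and 3. The group levels were 2.57 ± 0.242 and 31.8 ± 19.6 FPKM (SD, n = 3 each), with a log2 difference of 2.95 ± 0.53 (SE; limma adjusted p = 0.020). It ranked as increase number 52 among the 11378 tested genes. Without control mouse 1, 2 or 3 or SLE1.2.3 mouse 2 the adjusted p was 0.082, 0.082, 0.082 and 0.089, with log2 differences between 2.73 and 3.00. In SLE1.2.3 mouse 1 alone against the controls, the difference was 1.66 (limma adjusted p = 0.0045).

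The decoy receptor Il1r2 (chromosome 1, 40074079 to 40125231, plus strand) was the most abundant IL-1-binding chain of both groups. It was at 20.1, 29.3 and 28.0 FPKM in control mice 1, 2 and 3. In SLE1.2.3 mice 1, 2 and 3 it was at 58.4, 91.6 and 83.1 FPKM. The groups did not overlap. The group levels were 25.8 ± 4.95 and 77.7 ± 17.3 FPKM (SD, n = 3 each), a log2 difference of 1.55 ± 0.21 (SE; limma adjusted p = 0.010). Il1r2 passed with any single library left out, and had an adjusted p of 0.057 for SLE1.2.3 mouse 1 alone against the controls, at a log2 difference of 1.17. An annotated antisense gene, Gm16894, overlaps Il1r2 and was at 1.42 to 2.56 FPKM. No source used here gives the strand setting of the counting, so reads of that pair cannot be told apart.

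The accessory chain Il1rap (chromosome 16, 26581704 to 26730117, plus strand), which the IL-1, IL-33 and IL-36 receptors share, was low in both groups. It was at 0.532, 0.525 and 0.554 FPKM in control mice 1, 2 and 3 and at 0.534, 0.809 and 0.888 FPKM in SLE1.2.3 mice 1, 2 and 3, from 187 to 758 reads. SLE1.2.3 mouse 1 lay within the control range, and mice 2 and 3 lay above it. Without the filter its log2 difference was 0.18 (limma adjusted p = 0.43). The antagonist Il1rn (chromosome 2, 24336853 to 24351494, plus strand) was at 0.352, 0.394 and 0.450 FPKM in the controls and at 0.606, 0.340 and 0.305 FPKM in SLE1.2.3 mice 1, 2 and 3. The groups overlapped, with SLE1.2.3 mouse 1 highest and mouse 3 lowest of all 6 libraries. Without the filter the log2 difference of Il1rn was 0.01 (limma adjusted p = 0.95).

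Il1r1 and Il1r2 moved by unequal amounts. In the controls the FPKM of Il1r2 was 8.56, 10.3 and 11.03 times that of Il1r1. In SLE1.2.3 mice 1, 2 and 3 it was 5.68, 2.52 and 1.71 times that of Il1r1. Expressed as a share of the summed FPKM of both chains, the decoy made up 89.5% to 91.7% in the controls and 85.0%, 71.6% and 63.1% in SLE1.2.3 mice 1, 2 and 3. The log2 ratio fell by 1.77 between the group means, with groups that did not overlap (exact permutation test over libraries, two-sided, p = 0.10). With 3 against 3 libraries 0.10 is the smallest p this test can give, so none of the ratios can pass a threshold of 0.05. The ratio of Il1rap to Il1r1 was 0.185 to 0.226 in the controls and 0.0520, 0.0222 and 0.0183 in SLE1.2.3 mice 1, 2 and 3. Its log2 difference was -2.92 (exact permutation p = 0.10), since Il1r1 was far higher and Il1rap little different.

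**Figure D2:**
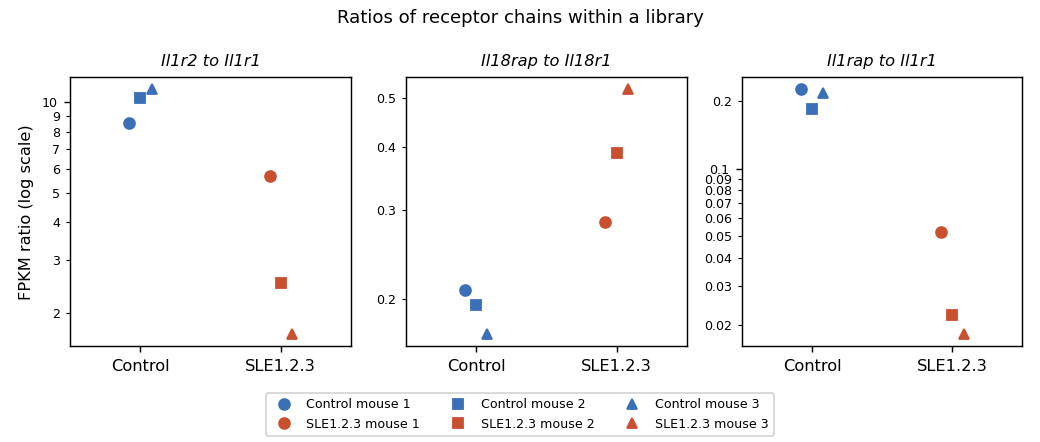
Ratio of the FPKM of 2 receptor chains (log axis) within each library, for Il1r2 to Il1r1, Il18rap to Il18r1 and Il1rap to Il1r1, with 1 symbol per mouse. In each panel the 3 SLE1.2.3 points lie on one side of the 3 control points, and SLE1.2.3 mouse 1 lies nearest to the controls.

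Both chains of the IL-18 receptor rose. Il18r1, which binds IL-18 (chromosome 1, 40465552 to 40500854, plus strand), was at 13.1, 16.9 and 18.7 FPKM in control mice 1, 2 and 3 and at 34.7, 58.7 and 61.7 FPKM in SLE1.2.3 mice 1, 2 and 3. The groups did not overlap, and SLE1.2.3 mouse 1 lay nearest to the controls. Il18r1 had a log2 difference of 1.58 ± 0.24 (SE; limma adjusted p = 0.014). Without control mouse 1, 2 or 3 or SLE1.2.3 mouse 2 the adjusted p of Il18r1 was 0.063, 0.064, 0.054 and 0.070, with log2 differences from 1.44 to 1.69. Without SLE1.2.3 mice 2 and 3 together it was 0.056, at a log2 difference of 1.06.

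Il18rap, the signalling partner chain (chromosome 1, 40515362 to 40551705, plus strand), was at 2.72, 3.29 and 3.19 FPKM in control mice 1, 2 and 3. In SLE1.2.3 mice 1, 2 and 3 it reached 9.82, 22.8 and 32.0 FPKM. The lowest SLE1.2.3 library was thus well above the highest control, and the SLE1.2.3 libraries were widely spread. The log2 difference of Il18rap was 2.33 ± 0.39 (SE; limma adjusted p = 0.018). Without control mouse 1, 2 or 3 or SLE1.2.3 mouse 2 the adjusted p was 0.075, 0.073, 0.071 and 0.080, with log2 differences from 2.22 to 2.37. For SLE1.2.3 mouse 1 alone against the controls it was 1.41 (limma adjusted p = 0.0089). Il18rap was the scarcer chain throughout. Its FPKM was 0.170 to 0.208 of that of Il18r1 in the controls and 0.283, 0.388 and 0.519 of it in SLE1.2.3 mice 1, 2 and 3. The log2 difference of this ratio was 1.02 (exact permutation p = 0.10).

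The stretches just upstream of the RefSeq starts of Il1r1, Il18r1 and Il18rap are printed because these genes of 1 cluster rose together. They are on the plus strand of GRCm38.p6, the assembly behind mm10, and run 5′ to 3′ up to the base before the start. Il1r1 is chr1:40224830-40225079, Il18r1 is chr1:40465416-40465551 and Il18rap is chr1:40515112-40515361. The Il18r1 stretch is shorter because Il1rl1 ends 136 bases before Il18r1 begins, on the same strand. None is printed for Il1r2 and Myd88, whose windows end in annotated exons.
Il1r1: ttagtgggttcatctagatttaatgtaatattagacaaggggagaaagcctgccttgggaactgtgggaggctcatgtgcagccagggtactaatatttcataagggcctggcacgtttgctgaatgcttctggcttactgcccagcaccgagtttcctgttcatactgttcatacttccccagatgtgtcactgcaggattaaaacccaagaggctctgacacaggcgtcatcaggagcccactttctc
Il18r1: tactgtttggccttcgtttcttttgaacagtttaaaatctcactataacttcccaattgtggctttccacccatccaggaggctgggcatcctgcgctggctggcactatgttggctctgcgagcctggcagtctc
Il18rap: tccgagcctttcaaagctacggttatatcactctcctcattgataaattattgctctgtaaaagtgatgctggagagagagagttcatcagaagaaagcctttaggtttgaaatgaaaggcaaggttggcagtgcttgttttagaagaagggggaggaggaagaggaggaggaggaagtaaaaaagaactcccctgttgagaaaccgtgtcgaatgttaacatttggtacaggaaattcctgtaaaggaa

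Windows of 250 bases before each RefSeq start were searched on both strands, and 4 of the motifs searched are given here: TGANTCA (AP-1), a form of κB site (GGGA and CC with any 4 bases between them), AGGTGTGA (T-box factors) and TTCNNNGAA (a form of STAT site). Of all 32851 such windows, 6.75% held the AP-1 motif, 17.6% the κB form, 1.12% the T-box motif and 7.02% the STAT form. The first start of Il1r1, of Il18r1 and of Il18rap had no match to any of the 4, so the stretches above carry no capitals. Il1r2 had 1 match to the STAT form, and a further Il18r1 start had 2. Myd88 had 1 match to the T-box motif and 1 to the STAT form. Of the members that did not pass or were not tested, Il1rap had 1 match to the κB form, and Il1rn had 1 to the AP-1 motif and 1 to the κB form. A match describes letters and not a bound site, and no match says only that these letters are not in this window. RefSeq windows were found for 9 of the 10 members.

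Il1rl1, which encodes the IL-33 receptor ST2 (chromosome 1, 40429570 to 40465415, plus strand), was near 0 in the controls and low in SLE1.2.3 cells. It was at 0.020, 0.013 and 0.034 FPKM in control mice 1, 2 and 3, from 7, 5 and 7 reads. In SLE1.2.3 mice 1, 2 and 3 it was at 0.287, 0.329 and 0.599 FPKM, from 165, 140 and 310 reads. The groups did not overlap, and the mean was 18.1 times that of the controls, although no library reached 1 FPKM. Without the filter, the log2(FPKM + 1) difference was 0.45 (limma adjusted p = 0.061), on a scale that understates the change of so low a gene. An unplanned voom fit on recovered reads, of features with at least 10 reads in 3 or more libraries, gave 4.19 (limma adjusted p = 0.013). There 2045 of 16388 features passed, and Il1rl1 entered only through its SLE1.2.3 reads. The 5 listed markers of mast cells and basophils, which express Il1rl1, summed to 0.887 to 1.96 FPKM in the controls. The sums were 4.57, 3.85 and 20.05 FPKM in SLE1.2.3 mice 1, 2 and 3. Of these markers only Fcer1a and Ms4a2, both below the filter, lay above all controls in every SLE1.2.3 library. Kit, Mcpt8 and Cpa3 overlapped the controls and did not pass (limma adjusted p = 0.088, 0.23 and 0.27). In SLE1.2.3 mouse 2 Mcpt8 and Cpa3 were within the control range, at 0.032 and 0.043 FPKM. Kit made up most of the sum there, at 2.754 FPKM. The 7 listed regulatory T and Th2 markers summed to 5.38 to 5.99 FPKM in the controls. In SLE1.2.3 mice 1, 2 and 3 they summed to 27.2, 20.2 and 35.1 FPKM. Of these sums Il13 alone was 18.5, 11.3 and 25.1 FPKM, against at most 1.05 FPKM in the controls. Gata3 and Il4 overlapped the controls and did not pass (limma adjusted p = 0.099 and 0.58), with Il4 below them in mice 2 and 3. For 5 of the 7 the SLE1.2.3 values lay above the controls, where 15.0% of all features above 0 did. The part of mast cells, basophils, regulatory T and Th2 cells in the Il1rl1 level was not tested.

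Il1rl2, the IL-36 receptor chain (chromosome 1, 40324610 to 40367562, plus strand), went the other way within the same cluster. It was at 2.35, 2.45 and 2.48 FPKM in control mice 1, 2 and 3 and at 2.12, 1.73 and 1.26 FPKM in SLE1.2.3 mice 1, 2 and 3. All 3 SLE1.2.3 libraries lay below the controls, with mouse 1 nearest to them. The log2 difference of Il1rl2 was -0.35 ± 0.13 (SE; limma adjusted p = 0.11), so it did not pass. Without SLE1.2.3 mouse 1 it passed, at a log2 difference of -0.46 (limma adjusted p = 0.021). In that fit 3701 of 11378 genes passed. With any other single library left out Il1rl2 did not pass (limma adjusted p = 0.17 to 0.24). For SLE1.2.3 mouse 1 alone against the controls its log2 difference was -0.14.

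Sigirr, which encodes an inhibitory member of the family (chromosome 7, 141091175 to 141100572, minus strand), was the most abundant member in the controls. It was at 50.9, 56.9 and 53.5 FPKM in control mice 1, 2 and 3 and at 63.3, 48.0 and 31.3 FPKM in SLE1.2.3 mice 1, 2 and 3. The groups overlapped, with SLE1.2.3 mouse 1 above all controls and mice 2 and 3 below them. The log2 difference of Sigirr was -0.23 ± 0.24 (SE; limma adjusted p = 0.53), and its sign turned without SLE1.2.3 mouse 3, to 0.04 (adjusted p = 0.87). Chromosome 7 carries Sle3, but no source used here gives the limits of that interval.

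Myd88, the adaptor through which these receptors signal (chromosome 9, 119335934 to 119341411, minus strand), rose by a smaller amount. It was at 21.2, 20.4 and 20.3 FPKM in control mice 1, 2 and 3 and at 26.3, 33.3 and 36.9 FPKM in SLE1.2.3 mice 1, 2 and 3. The control values lay within 1 FPKM of each other and below every SLE1.2.3 library. The log2 difference of Myd88 was 0.60 ± 0.12 (SE; limma adjusted p = 0.028). Without control mouse 1, 2 or 3 or SLE1.2.3 mouse 2 its adjusted p was 0.091, 0.11, 0.098 and 0.12, and without SLE1.2.3 mice 2 and 3 together 0.083, at a log2 difference of 0.34. The neighbouring gene Acaa1a, on the opposite strand, overlaps Myd88. Acaa1a was at 11.3 to 13.3 FPKM in the controls and at 15.1, 14.4 and 14.0 FPKM in SLE1.2.3 mice 1, 2 and 3. As the strand setting of the counting is not given, reads from their overlap cannot be told apart.

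**Figure D3:**
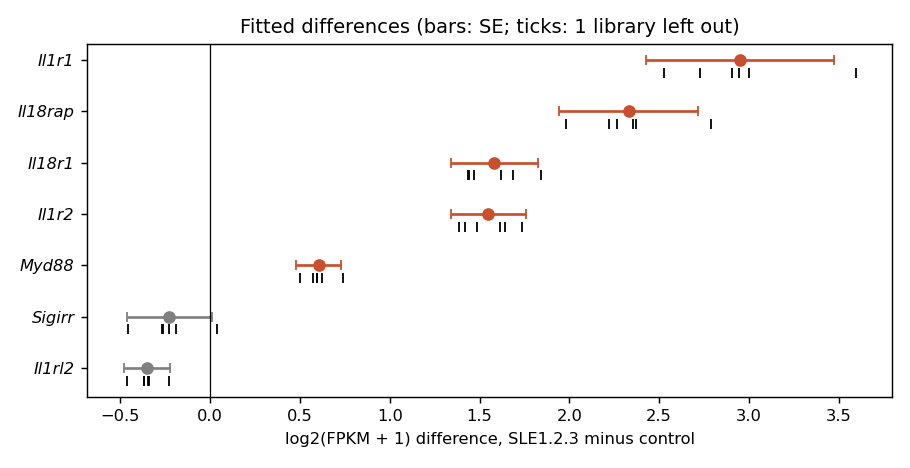
Fitted difference in log2(FPKM + 1), SLE1.2.3 minus control, for the 7 tested members, with bars of 1 SE, orange for an adjusted p of at most 0.05 and grey otherwise, and black ticks for the fits with 1 library left out. The 5 genes that rose keep positive differences in every such fit, while the ticks of Sigirr fall on both sides of 0.

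The 6 receptor genes of chromosome 1 lie within 478 kb, all on the plus strand, in the order Il1r2, Il1r1, Il1rl2, Il1rl1, Il18r1 and Il18rap. Within 1 Mb of the cluster 9 other features were tested, 8 of them on the Il1r2 side and Gm16894 inside it, and 0 of them passed with limma in either direction, where 15.2% of all tested genes did. For so few features a count of 0 does not set them apart from other genes. Their log2 differences ran from -0.63 for Npas2, a circadian transcription factor gene, to 0.23 for Gm16894. Map4k4, the kinase gene next to Il1r2, was at 65.7 to 75.9 FPKM in the controls and at 76.1, 65.5 and 50.4 FPKM in SLE1.2.3 mice 1, 2 and 3 (limma adjusted p = 0.41). On the other side, beyond Il18rap, the sodium-proton exchanger gene Slc9a4 was at 0 in all libraries, which allows up to 3 reads in each. Slc9a2, another exchanger gene, was at 0.0910 to 0.117 FPKM in the controls and at 0.175, 0.362 and 0.597 FPKM in SLE1.2.3 mice 1, 2 and 3, and Mfsd9 was at most 0.137 FPKM. Of the wider list of 27 chromosome 1 neighbours, 15 were tested, with 0 higher and 1 lower, namely Rev1 (log2 difference -0.33, limma adjusted p = 0.046). Without SLE1.2.3 mouse 1, 4 of the list passed, and without any other single library 0 did. The median of that list was 0.01, as for all genes. No feature within 1 Mb beyond Il18rap reached the filter, so that side was not tested, and Il1rl2, between Il1r1 and Il1rl1, did not pass.

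**Figure D4:**
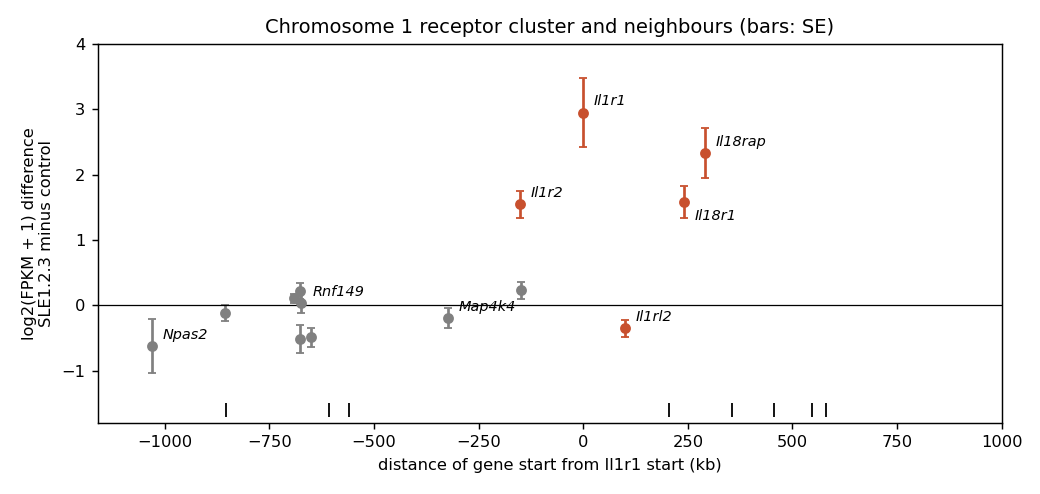
Log2(FPKM + 1) difference (SLE1.2.3 minus control, bars of 1 SE) of tested genes against the distance of their start from that of Il1r1 in kb, with receptor genes in orange, other tested features in grey and black ticks for protein-coding genes below the filter. Il1r1, Il18rap, Il18r1 and Il1r2 stand at 1.55 to 2.95, and the grey points lie between -0.63 and 0.23.

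The ligands of the family were scarce. Of 14 listed symbols, which include older names, 7 were found and 2 tested. Il1b, which encodes IL-1β, fell from 2.03, 2.35 and 1.99 FPKM in control mice 1, 2 and 3 to 1.02, 0.0600 and 0.0910 FPKM in SLE1.2.3 mice 1, 2 and 3 (log2 difference -1.23 ± 0.26 SE; limma adjusted p = 0.029). Il1a was at 0.937 to 1.198 FPKM in the controls and at 0.431, 0.131 and 0.0610 FPKM in SLE1.2.3 mice 1, 2 and 3, below the filter. Il18bp, a secreted protein that neutralises IL-18, rose from 1.53 to 1.73 FPKM in the controls to 2.30, 2.91 and 3.00 FPKM in SLE1.2.3 mice 1, 2 and 3 (log2 difference 0.49; limma adjusted p = 0.029). Neither Il1b nor Il18bp passed without control mouse 1, 2 or 3, without SLE1.2.3 mouse 2 or 3 or without the filter. Both passed without SLE1.2.3 mouse 1. Il18, also below the filter, was at 0.077, 0.137 and 0.033 FPKM in control mice 1, 2 and 3 (1 to 8 reads) and at 0.477, 0.582 and 0.155 FPKM in SLE1.2.3 mice 1, 2 and 3 (12 to 41 reads), with groups that did not overlap. Il33 was at most 0.0170 FPKM.

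Of 21 listed genes that act below Myd88, 19 were tested, 1 rose, 2 fell and 16 did not pass, with a median log2 difference of 0.03 against 0.01 for all genes. That number of calls is near the 15.2% called among all tested genes, and it was 0 without control mouse 1 or 2 or SLE1.2.3 mouse 2, 1 without control mouse 3 and 5 without SLE1.2.3 mouse 1. Irak4, the kinase recruited by Myd88, rose from 5.05 to 5.68 FPKM in the controls to 6.84, 8.41 and 8.92 FPKM in SLE1.2.3 mice 1, 2 and 3 (log2 difference 0.52, limma adjusted p = 0.027). Traf6, the ubiquitin ligase below the IRAK kinases, fell from 17.3 to 19.1 FPKM in the controls to 12.8, 9.27 and 8.16 FPKM in SLE1.2.3 mice 1, 2 and 3 (log2 difference -0.81, limma adjusted p = 0.022). Map3k7, which encodes the kinase TAK1, fell by 0.51 on the log2 scale (limma adjusted p = 0.016). Irak3, an inhibitory relative of the IRAK kinases chosen for mention after its values were seen, was at 1.15 to 1.33 FPKM in the controls and at 2.48, 13.4 and 29.9 FPKM in SLE1.2.3 mice 1, 2 and 3, and did not pass (log2 difference 2.39 ± 0.73 SE; limma adjusted p = 0.074).

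Of 17 NF-κB subunits and genes that IL-1 is known to induce, all 17 were tested, 6 rose, 0 fell and 11 did not pass, where 9.65% of all tested genes rose and 5.58% fell. The median log2 difference of the list was 0.27 against 0.01 for all genes. The number called depended on single libraries, with 1 gene passing without control mouse 1, 2 or 3 and 0 without SLE1.2.3 mouse 2. With SLE1.2.3 mouse 1 alone against the controls, 3 genes passed. The 6 were Bcl3, Nfkbie, Nfkbia, Zc3h12a, Icam1 and Tnfaip3. Nfkbia, the inhibitor IκBα, was at 234 to 243 FPKM in the controls and at 329, 384 and 354 FPKM in SLE1.2.3 mice 1, 2 and 3 (log2 difference 0.58, limma adjusted p = 0.012). Nfkbie, another inhibitor, and Bcl3, a nuclear IκB protein, had log2 differences of 0.67 and 0.95 (limma adjusted p = 0.0085 and 0.012). Zc3h12a, which encodes the RNase Regnase-1, had a log2 difference of 0.48 (limma adjusted p = 0.022). Nfkbiz, an IL-1-induced coactivator, was at 13.2 to 14.9 FPKM in the controls and 13.4 to 14.5 FPKM in SLE1.2.3 cells (limma adjusted p = 0.84).

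Summed markers of other lymphocytes moved with the receptor genes, though not every marker did. The 8 listed γδ and innate-like T cell markers, among them Trdc, Trgc1 and Zbtb16, summed to 2.86 to 3.15 FPKM in the controls and to 55.5, 254 and 568 FPKM in SLE1.2.3 mice 1, 2 and 3. The 8 CD8 T and NK cell markers summed to 11.5 to 12.5 FPKM in the controls and to 36.3, 145 and 238 FPKM in those 3. The 6 Th1 markers summed to 23.7 to 31.9 FPKM in the controls and to 58.0, 236 and 476 FPKM in the same 3. Of these sums the cytokine gene Ifng alone was 22.6, 189 and 422 FPKM in SLE1.2.3 mice 1, 2 and 3. Tbx21 was at most 0.419 FPKM in the controls and at 2.90, 9.41 and 17.2 FPKM in SLE1.2.3 mice 1, 2 and 3. Stat4 and Il12rb2 overlapped the controls and did not pass (limma adjusted p = 0.91 and 0.95). All 8 γδ markers, 3 of the 5 tested CD8 and NK markers and 3 of the 6 Th1 markers had control means below 1 FPKM. Such genes could pass the filter only by being higher in SLE1.2.3 cells, so their sums are given as a description. No marker of these 3 lists was at 0 in every control library, and Ncr1, which defines NK cells, was at most 0.0320 FPKM in any library.

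Il1r1, Il18r1, Il18rap and Myd88 had the order of these sums among the SLE1.2.3 libraries, with mouse 1 lowest and mouse 3 highest. Relative to the control mean, Il1r1 was at 3.99, 14.2 and 18.9 times and Il18rap at 3.20, 7.42 and 10.4 times in SLE1.2.3 mice 1, 2 and 3. The γδ sum was at 18.5, 84.7 and 189 times its control mean. Il1r2 was at 2.26, 3.55 and 3.22 times, Il18r1 at 2.13, 3.62 and 3.799 times and Myd88 at 1.27, 1.61 and 1.79 times their control means. In SLE1.2.3 mouse 1 Cd4 was within the control range, but Cd8a was at 3.603 times, Trdc at 7.91 times and Ifng, the Th1 cytokine gene, at 18.2 times its control mean. The part of γδ, CD8, NK and Th1 cells in the receptor levels was not tested. The 8 myeloid markers, from cells that express Il1rn and Il1b, summed to 8.84 to 10.2 FPKM in the controls and to 12.8, 5.30 and 3.52 FPKM in SLE1.2.3 mice 1, 2 and 3, and their part was not tested. Il1rn had the same order among those 3. Il1b was highest of them in SLE1.2.3 mouse 1, but at 0.479 times its control mean, where the myeloid sum was at 1.33 times its own. Of the 3 tested myeloid markers, Lyz2 (7.73 FPKM) and Cd14 (2.013 FPKM) lay above all controls in that library. Cd68 lay below all controls there, at 1.945 FPKM. The 6 B cell markers summed to 1.76 to 2.78 FPKM in the controls and to 4.56, 2.92 and 4.29 FPKM in SLE1.2.3 mice 1, 2 and 3.

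**Figure D5:**
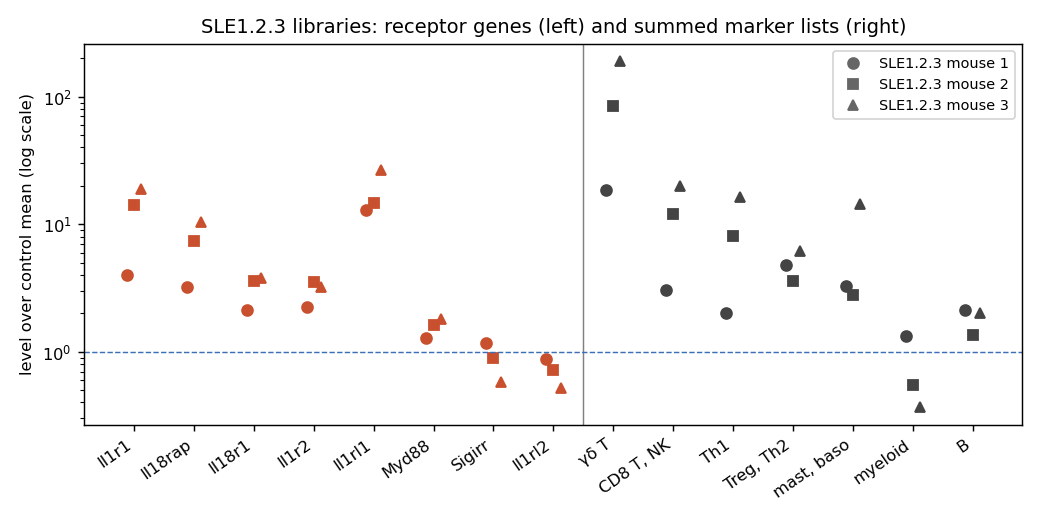
Level in each SLE1.2.3 library divided by the control mean (log axis, dashed line at 1) for 8 receptor family genes on the left and for the summed FPKM of 7 marker lists on the right, with 1 symbol per mouse. Il1r1 stands at 3.99 to 18.9 and the γδ T cell sum at 18.5 to 189, both lowest in mouse 1 and highest in mouse 3.

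The genes most like each member were taken by the root-mean-square difference of log2(FPKM + 1) profiles, each centred over the 6 libraries. Tested genes with Gm, RIKEN, predicted or pseudogene symbols were left out of this ranking. For Il1r1 they were Havcr2, Myo1e and Klrk1, at 0.13, 0.13 and 0.14. For Il18rap they were Slfn8, Plac8 and Bcl2a1d, at 0.09, 0.10 and 0.11. For Il1r2 they were Isg15, H2-Q6 and Il18r1, at 0.06, 0.08 and 0.11, and for Il18r1 they were Isg15, Il1r2 and the segment Igkv5-48, at 0.09, 0.11 and 0.12. Il1r2 and Il18r1 were thus among each other's 3 nearest genes of those ranked. Spns1, Dnajc3 and Tmem68 lay nearest to Myd88, Polm, Zfp623 and Skp1a to Il1rl2, and Pnrc1, Dipk2a and Col4a2 to Sigirr. In the controls Havcr2, Myo1e and Klrk1 were at most 0.460 FPKM and Igkv5-48 at most 0.093 FPKM. Those genes passed the filter only by being high in SLE1.2.3 cells, and log2(FPKM + 1) understates their change. Havcr2, for example, was at 0.058 to 0.124 FPKM in the controls and at 2.04, 8.28 and 13.3 FPKM in SLE1.2.3 mice 1, 2 and 3. All these likenesses rest on 6 libraries that share the same group contrast and are given as a description.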

How the data were processed

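Per the labels' protocols, the 6 libraries were made from polyadenylated RNA (SMARTER mRNA kit). Tools named without a role in the submitters' processing notes are STAR 2.7.3a, featureCounts 2.0.0, cutadapt 2.10, DESeq2 1.24.0 and FastQC 0.11.9, with the build mm10. The authors deposited 1 table of FPKM values with feature lengths and coordinates, and all 10 members had the coordinates of GENCODE M21. In each deposited column FPKM times length in kb sums to 1000000. No 2 libraries were identical.

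Assigned reads per library were recovered from the FPKM steps, and 100% of values under 30 reads were whole within 0.15 of a read. A value of 0 allows up to 3 reads, for counting error only. Features with a mean of at least 1 FPKM, 11378 in all, were transformed to log2(FPKM + 1), which understates changes of low genes. They were fitted with limma 3.58.1 in R 4.3.3 (empirical Bayes with a mean-variance trend, genotype as the only term), and each adjusted p is Benjamini-Hochberg adjusted over all of them, with a threshold of 0.05. The labels name separate mice, so the spread is between mice. The file holds no counts, so a count model was not the main test, and voom on the recovered reads was an alternative. Receptor ratios were compared with an exact permutation test (SciPy 1.17.1).

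The members and lists were chosen with earlier results of these data known. The genes named are the members, up to 4 called members of each list, the cluster's neighbours, some identity genes and the 3 most alike genes of each tested member. Irak3, Icam1, Tnfaip3, Nfkbiz, Il1a, Il18, Il33, Ncr1, Cd3e and Npas2 were also named after their values were seen. The same holds for Kit, Cpa3, Mcpt8, Fcer1a, Ms4a2, Il4, Stat4, Il12rb2, Lyz2, Cd14 and Cd68. Some listed genes and 1 motif are not reported here. Alternatives were another pseudocount (0.1), other filters, scalings and variance settings, a block for mouse number and libraries left out.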

Additional observations from a re-analysis of the deposited data

How the results depend on the processing

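The 5 genes that rose kept their direction under every alternative tried, and Il1r1, Il18rap and Il18r1 kept their call under 14 of 19, Il1r2 under 18 and Myd88 under 12. The number of members that passed was 5, and it was 2 without a filter on low values, 2 for SLE1.2.3 mouse 1 alone against the controls and 1 to 6 with single libraries left out. Of 11378 genes 1733 passed, 1098 higher and 635 lower. The split was 990 and 351 after rescaling to a common FPKM sum, which moved the median of all genes from 0.01 to 0.11, and 921 and 881 after quantile normalization. The number passing was 798 without a filter, 1503 with voom on recovered reads, 1129 with a mean of at least 5 FPKM, 6952 with array weights, whose estimation stopped before convergence, and 665 for SLE1.2.3 mouse 1 alone. It ran from 240 without SLE1.2.3 mouse 2 to 3701 without SLE1.2.3 mouse 1, and was 327, 261 and 288 without control mice 1, 2 and 3. The cause of these shifts was not tested, and some of these fits also differed in their number of libraries or genes.

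Without a filter the adjusted p of Il1r1, Il18rap and Myd88 was 0.060, 0.053 and 0.071. With array weights Il1rl2 passed as lower (adjusted p = 0.0021). The log2 difference of Sigirr ran from -0.46 to 0.037 with single libraries left out, its sign being reversed without SLE1.2.3 mouse 3, and was 0.23 for SLE1.2.3 mouse 1 alone. The receptor ratios kept their direction with a pseudocount of 1 and with any library left out. With mouse number as a replicate block, 940 genes passed, and Myd88 no longer did (adjusted p = 0.059), while 4 of the 5 members stayed called. Same-numbered mice deviated together with r of -0.00, 0.10 and 0.09. SLE1.2.3 mouse 1 was most like control mouse 2, at 0.13, and SLE1.2.3 mice 2 and 3 were most like the controls of their number. With 3 mice per group these values cannot settle whether the numbers pair the mice, and the labels name no shared litter or day. Of 234 list counts under alternatives, 146 stayed within 1.5 times, 69 were lower and 19 higher.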
